A study of Homo sapiens with 14 samples.

Results

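The genes examined here encode respiratory complex I, the proton-pumping NADH dehydrogenase of the inner mitochondrial membrane, and the factors that assemble it. They were taken by name: every targeted gene whose symbol starts with NDUF, together with FOXRED1, ECSIT, ACAD9, TIMMDC1, NUBPL and TMEM126B. This gave 53 of 19114 genes in the knockout library, with 212 of 77441 guides (4 a gene), and 53 of 18886 genes in the activation library, with 159 of 56762 guides (3 a gene). By symbol, NDUFC2 was found only in the knockout library and NDUFAF8 only in the activation library, so 52 symbols were shared. The knockout library targets NDUFAF8 under its older name C17orf89, which the naming rule leaves out. In the knockout library the members were 37 subunits (7 core, 9 supernumerary in the matrix arm, 20 supernumerary in the membrane arm, and NDUFAB1, which sits in both arms), 13 assembly factors, and 3 NDUF names that are not complex I subunits.

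RKO and SW620, both established colorectal carcinoma lines of human origin, were screened. Each line carried Cas9 with the Brunello knockout library or dCas9-VP64, a transcriptional activator, with the Calabrese library. Guides entered at a low multiplicity of infection and carriers were selected with puromycin. RKO had libraries from oxaliplatin at 1.9 µM on day 20, from untreated cells on day 20 and from untreated cells on day 0. SW620 had untreated cells on day 20, oxaliplatin at 0.38 µM and at 0.5 µM on day 20, and untreated cells on day 0. The labels give 1 library per condition, 14 in all, so no difference has a replicate check and each test compares libraries, not conditions. The labels also give EMEM for RKO and RPMI for SW620, so line and medium cannot be told apart. Guide counts come from genomic DNA and hold no expression, so the lines could not be checked against marker genes.

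Complex I takes electrons from NADH and passes them along iron-sulfur clusters in its matrix arm to ubiquinone, while its membrane arm moves protons out of the matrix. The core subunits do this chemistry, and those encoded in the nucleus lie in the matrix arm; the other core subunits are encoded by mitochondrial DNA and do not fall under the naming rule. Supernumerary subunits surround the core, and assembly factors build modules of it, insert cofactors or modify subunits without staying in the finished enzyme. Cells without working complex I rely on glycolysis for ATP and need another route to regenerate NAD+ for aspartate synthesis.

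A guide lost from the population over time marks cells that grew or survived less well than the rest. Library totals ran from 3647823 counts (SW620 activation, untreated) to 69526489 (SW620 knockout, day 0). The median guide had between 21 and 987 counts, lowest in RKO activation under oxaliplatin. The most abundant 1% of guides made up 41.4% of the RKO knockout library under oxaliplatin, 31.5% of SW620 knockout at 0.5 µM and 52.8% of RKO activation under oxaliplatin, against 2.16% to 3.03% on day 0. Counts were scaled between the libraries of a screen by median ratio, and a gene's value is the median log2 fold of its guides. Genes were called below an adjusted p of 0.10 by robust rank aggregation of their guides with Benjamini-Hochberg adjustment over all genes, here called the exact rank test because gene scores take exact probabilities under uniform guide ranks. All 53 members of each library passed the filter on day 0 counts in every comparison.

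In untreated RKO, complex I knockout guides were depleted over 20 days. The 212 member guides took 0.0915% of counts on untreated day 20 (95% Wilson interval 0.0905 to 0.0925%), against 0.239% on day 0 (0.237 to 0.241%). Of 53 members, 43 had a median log2 fold of -1 or lower, against 11.8% of all genes tested, and 24 were called lower, against 6.69% of all genes. None was called higher, against 0.0105% of all genes. The members' median was -2.10, while that of all genes was 0.09, and 142 of 212 member guides (67%) stood at -1 or lower against 12.2% of all guides. The median of non-targeting guides was 0.51. Olfactory receptor genes, which encode odorant sensors of the nose, had 8 of 374 at -1 or lower.

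All 7 core subunits lay at -1 or lower in untreated RKO and 5 were called lower. The deepest was NDUFS1, the largest iron-sulfur subunit, whose 4 guides had 14.6, 4.37, 0 and 11.7 scaled counts in the untreated library, against 686, 166, 168 and 176 on day 0. All 4 guides were nearly gone, and the guide at 0 was at least 77.1-fold below day 0 by the limit of 3 counts. The median log2 fold of NDUFS1 was -4.65 (adjusted p = 0.00468, exact rank test). NDUFV1, which binds NADH and the flavin that receives its electrons, had 5.10, 5.10, 32.8 and 15.3 scaled counts in the untreated library, against 345, 301, 245 and 329 on day 0. All 4 of its guides were lower untreated as well, and its median log2 fold was -4.48 (adjusted p = 0.00109, exact rank test). NDUFS8, an iron-sulfur subunit near the quinone site, had 13.8, 9.47, 130.4 and 11.7 scaled counts untreated, against 204, 205, 214 and 163 on day 0. One of its guides was lost far less than the other 3, and the gene was still called lower (median log2 fold -3.40, adjusted p = 0.0588, exact rank test).

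NDUFS7 and NDUFS3 were also called lower. NDUFS7, which helps form the quinone pocket, had 162, 115, 4.37 and 144 scaled counts untreated, against 595, 395, 188 and 354 on day 0, a median log2 fold of -1.79. NDUFS3, a structural core subunit of the matrix arm, had 336, 404, 64.9 and 13.8 scaled counts untreated, against 566, 379, 318 and 439 on day 0, a median of -1.48. Its guides ranged from 0.09 to -4.56, so the gene's value rests on a part of its guides. NDUFV2, which carries an iron-sulfur cluster of the NADH-oxidising tip, was split between its guides. It had 267, 377, 64.1 and 44.5 scaled counts untreated, against 238, 252, 451 and 265 on day 0, and was not called (median log2 fold -1.14, adjusted p = 0.26, exact rank test).

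The supernumerary subunits of the membrane arm were depleted more uniformly than those of the matrix arm by count. In the membrane arm 19 of 20 lay at -1 or lower and 10 were called lower, with a class median of -2.82 in untreated RKO over day 0. In the matrix arm 3 of 9 lay at -1 or lower, and those 3 were called, with a class median of -0.29; the difference between the arms was not tested. Membrane-arm medians were lowest for NDUFA1 at -3.33, an X-linked subunit required for complex I assembly, and highest for NDUFB1 at 0.24, the lone member of this class above 0. NDUFA1 had 24.8, 15.3, 21.9 and 10.2 scaled counts untreated, against 294, 454, 267 and 119 on day 0, and its 4 guides agreed closely. NDUFB7, NDUFC2, NDUFB3, NDUFB6, NDUFS5 and NDUFB4 were called with medians between -3.11 and -2.80. NDUFB9, NDUFB8, NDUFA11 and NDUFB5 had medians of -3.24, -3.16, -3.14 and -2.83 but were not called, with adjusted p of 0.203, 0.96, 0.284 and 0.286 by the exact rank test. All 4 were called lower when the test grouped guides by their day 0 count, as described below.

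Among matrix-arm subunits the low values belonged to NDUFA2, NDUFA9 and NDUFA6. NDUFA2, a small subunit with a thioredoxin-like fold, had 4.37, 17.5, 49.5 and 1.46 scaled counts untreated, against 402, 542, 148 and 79.3 on day 0. It was the third-lowest member at -4.16 (adjusted p = 0.00671, exact rank test). NDUFA9, which lies near the joint of the arms, was at -2.29 and NDUFA6 at -1.73. The other matrix-arm members were NDUFA5 at -0.56, NDUFS6 at -0.29, NDUFS4 at -0.03, NDUFV3 at 0.03, NDUFA7 at 0.04 and NDUFA12 at 0.38, and none of these 6 was called. NDUFS4, whose mutations are a known cause of Leigh syndrome, had 45.9, 246, 280 and 222 scaled counts untreated, against 51.1, 229, 265 and 245 on day 0. Each NDUFS4 guide kept nearly its day 0 level, with guide log2 folds from -0.14 to 0.10. NDUFAB1, the mitochondrial acyl carrier protein, which also serves lipoic acid and iron-sulfur cluster synthesis, was at -2.14 with all 4 guides at -1.81 or lower and was not called (adjusted p = 0.415, exact rank test).

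**Figure D1:**
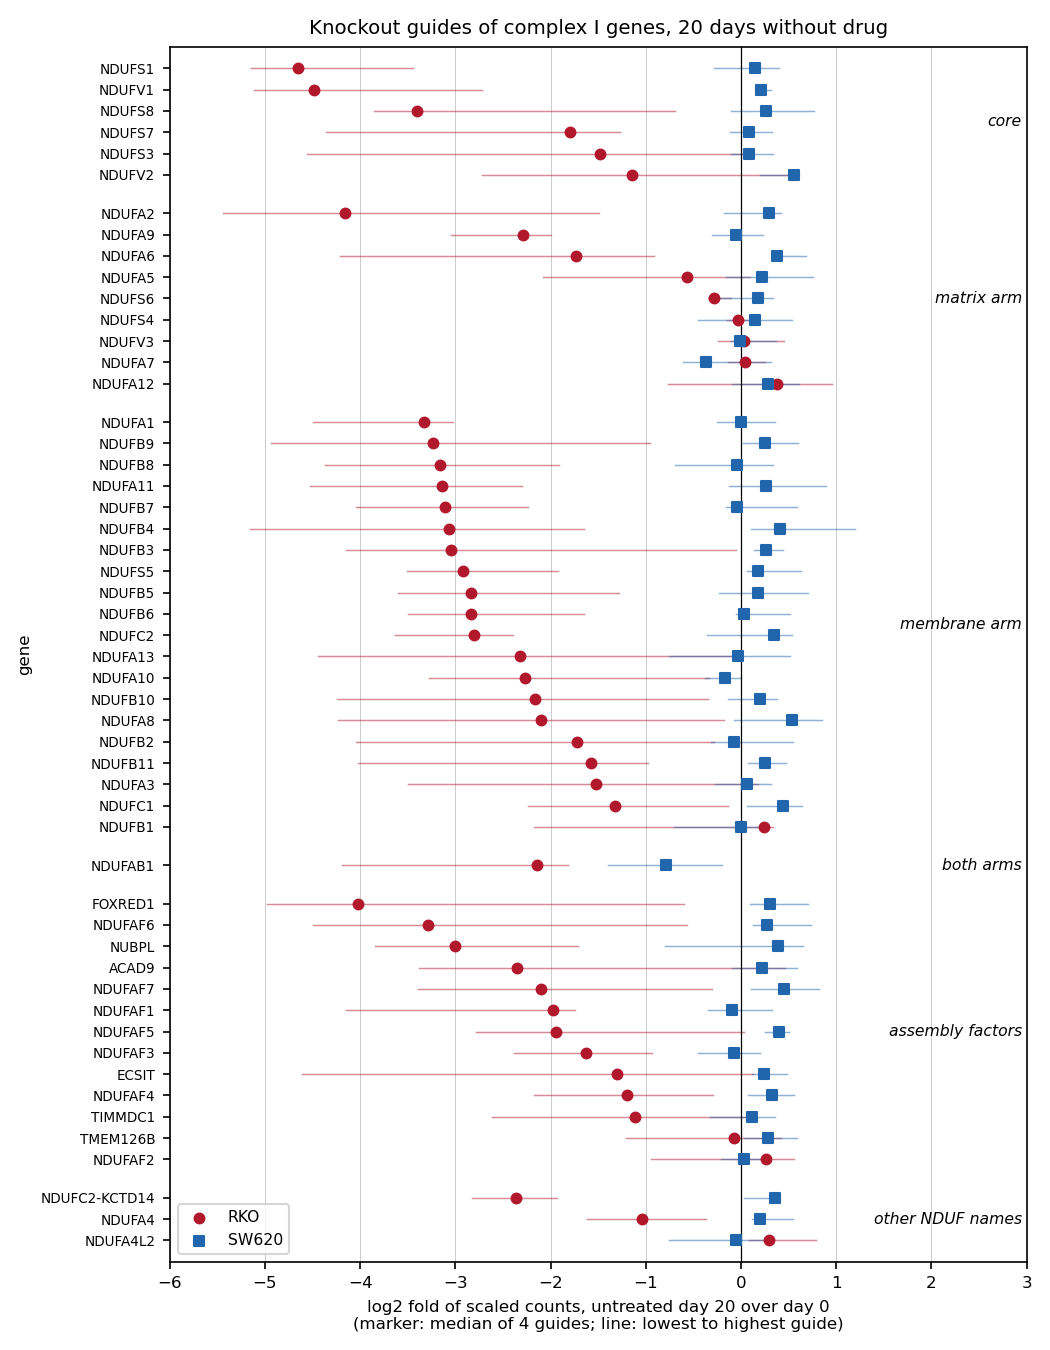
Median log2 fold of scaled knockout guide counts, untreated day 20 over day 0, for each of 52 genes (rows, by class), in RKO (circles) and SW620 (squares); each line runs from the lowest to the highest of 4 guides. In RKO 42 of these genes lie at -1 or lower, and in SW620 none does.

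Of 13 assembly factors, 11 lay at -1 or lower in untreated RKO and 6 were called lower. FOXRED1, a flavoprotein that acts in the middle of assembly, was lowest at -4.03. Its guides had 149, 0, 24.0 and 3.64 scaled counts untreated, against 228, 152, 275 and 233 on day 0, so 3 were lost and 1 was kept in good part (adjusted p = 0.0441, exact rank test). NDUFAF6, needed for an early assembly step, was at -3.29 with 24.8, 488, 70.7 and 16.03 scaled counts untreated, against 596, 727, 354 and 470.3 on day 0. NUBPL, which inserts iron-sulfur clusters, was at -3.003, and all 4 of its guides were at -1.72 or lower. ACAD9 and ECSIT, partners in the complex that builds an intermediate of the membrane arm, were called at -2.36 and -1.31. NDUFAF5, which hydroxylates an arginine of NDUFS7, was called at -1.95.

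The assembly factors that were not called were NDUFAF7, an arginine methyltransferase, at -2.10, NDUFAF1 at -1.97, the early factors NDUFAF3 and NDUFAF4 at -1.63 and -1.19, TIMMDC1 at -1.11, TMEM126B at -0.07 and NDUFAF2 at 0.26. NDUFAF1, TIMMDC1 and TMEM126B work with ACAD9 and ECSIT, so the values within that assembly complex ran from -2.36 to -0.07. NDUFAF2, a late factor related in sequence to NDUFA12, had 210, 466, 456 and 291 scaled counts untreated, against 409, 428, 308 and 218 on day 0. NDUFAF2 and NDUFA12 were both above 0, at 0.26 and 0.38, and neither was called.

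The NDUF names outside complex I were mixed. NDUFA4, now known as a complex IV subunit, was at -1.04 and its paralog NDUFA4L2 at 0.29, and neither was called. NDUFC2-KCTD14, a readthrough gene that overlaps NDUFC2, was at -2.36, close to NDUFC2 at -2.81. Guides to these 2 genes may share a target, so the readthrough value is uncertain as a separate one. The knockout library also targets C17orf89, the older name of NDUFAF8, a partner of NDUFAF5. It falls outside the naming rule and was called lower in untreated RKO with a median of -3.26.

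Guides of a gene agreed to differing degrees in untreated RKO. All 4 guides were at -1 or lower in 19 members, 3 guides in 15, 2 guides in 9, 1 guide in 3 and no guide in 7. The exact rank test standardised folds among guides of similar mean count, so its direction can oppose the sign of a gene's median. With guides grouped by their day 0 count in place of the mean, 34 members were called lower (9.85% of all genes), 22 of them shared with the 24. Called with this grouping but not with the mean were, among others, NDUFB9, NDUFB8, NDUFA11, NDUFB5, NDUFAB1, NDUFAF3 and NDUFAF7. Without standardising, 30 were called (10.7% of all genes), of which 18 were shared. Complexes II to V of the respiratory chain, listed with their assembly factors, had 50 of 72 genes at -1 or lower and 32 called, with a median of -2.31.

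In untreated SW620 no complex I gene passed the test. Member guides took 0.283% of counts on untreated day 20 (95% Wilson interval 0.281 to 0.284%), against 0.249% on day 0 (0.247 to 0.25%). Of 53 members, 0 lay at -1 or lower, against 1.21% of all genes, and 0 were called lower by the exact rank test, against 3.53% of all genes. At an unadjusted p under 0.05, 1 member was lower and 11 were higher, and without standardising 1 member was called lower. The share of all genes at this unadjusted cut is not given, here or below, so such counts are a description. None was called higher, against 0.00524% of all genes. The members' median log2 fold was 0.20 and that of all genes 0.04, with 38 members above 0. These signs depend on the scaling: with scaling by non-targeting guides, 22 of 53 members changed sign. The range of members was narrow, reaching 0.56 for NDUFV2, 0.54 for NDUFA8 and 0.45 for NDUFAF7 at the upper end.

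NDUFAB1 was the lowest member in SW620 at -0.79. It had 85.6, 346, 142 and 146 scaled counts untreated, against 233, 399, 260.02 and 245 on day 0 (adjusted p = 0.193, exact rank test). All 4 guides were below day 0, and the next named member, NDUFA7 at -0.37, was nearer 0. NDUFS1 had 1368, 402, 214 and 374 scaled counts untreated, against 1034, 400.03, 262 and 307 on day 0. NDUFV1 had 679, 582, 439 and 725 untreated, against 586, 466, 393 and 629.8 on day 0. By median-ratio scaling, all 4 guides of NDUFV1 and 3 of the 4 of NDUFS1 were thus at or above their day 0 level, in contrast to the same guides in RKO. Complexes II to V had 5 of 72 genes called lower in SW620: CYC1 at -1.16, SDHD at -0.88, SDHAF1 at -0.80, COX11 at -0.63 and UQCRC1 at -0.62.

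Depletion was shallower in SW620 than in RKO across the genome, with 2247 of 19093 genes at -1 or lower in RKO and 231 of 19099 in SW620. Genes depleted in RKO were therefore followed into SW620. The 43 members at -1 or lower in RKO had a median log2 fold of 0.21 in SW620, with the middle 50% between 0.02 and 0.31, 11 below 0 and 0 called lower. Signs in SW620 are those of median-ratio scaling. The 2204 other genes at -1 or lower in RKO had a SW620 median of -0.45, with the middle 50% between -0.70 and -0.21, 1958 (88.8%) below 0 and 579 (26.3%) called lower. The 50 such genes of complexes II to V had a SW620 median of -0.25, with 37 below 0 and 5 called. Between the lines, Pearson r of the member values was -0.13 and Spearman rho -0.13 over 53 genes, against 0.62 and 0.34 over 19093 genes; these points share their libraries and are a description.

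**Figure D2:**
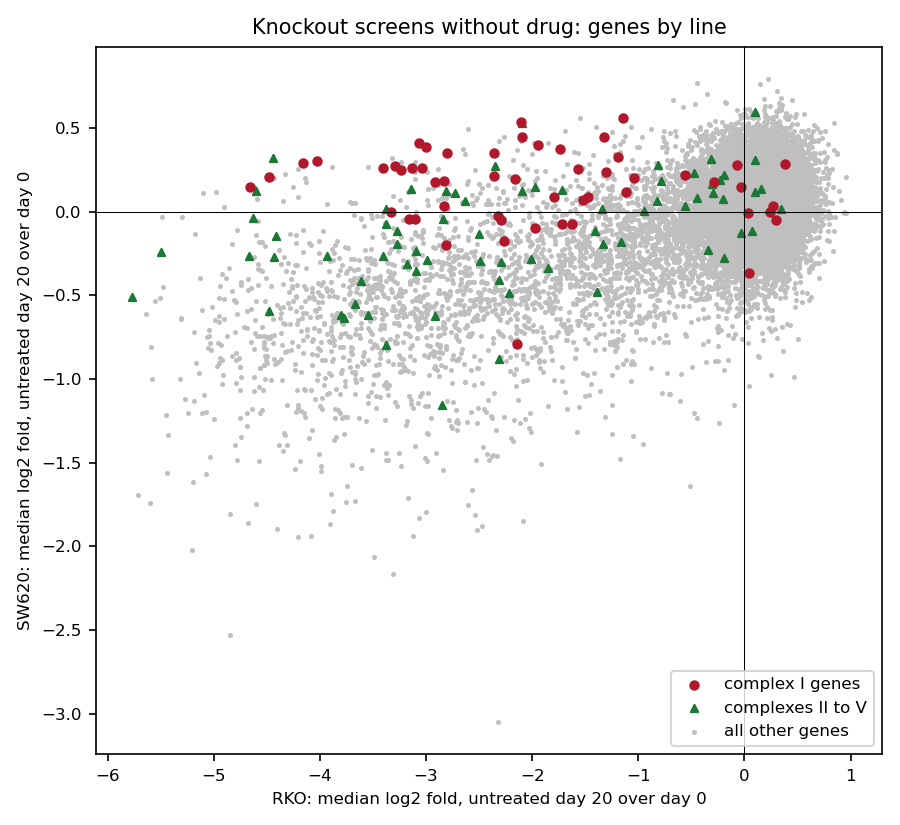
Median log2 fold of untreated day 20 over day 0 in RKO (x axis) and SW620 (y axis), 1 point per knockout gene, with complex I genes as circles, complexes II to V as triangles and all other genes in grey. The 43 complex I genes at -1 or lower in RKO have a SW620 median of 0.21, while the 2204 other genes there have -0.45.

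The difference between the lines was tested guide by guide, as the RKO fold minus the SW620 fold. Of 53 members, 34 were called lower in RKO, against 7.01% of all genes, and 43 lay at -1 or lower, against 10.4% of all genes. None was called higher (0.0314% of all genes). The median difference was -2.25, against 0.01 for all genes, and 47 of 53 members had a lower gene value in RKO than in SW620. The largest differences were NDUFV1 at -4.74 (adjusted p = 0.000948), NDUFS1 at -4.51 (adjusted p = 0.000764), FOXRED1 at -4.38 (adjusted p = 0.00345) and NDUFA2 at -4.28 (adjusted p = 0.00158), all by the exact rank test. By class, 6 of 7 core subunits, 4 of 9 matrix-arm, 15 of 20 membrane-arm subunits and 8 of 13 assembly factors were called. The other call was the readthrough gene NDUFC2-KCTD14. NDUFV2 was the core subunit not called (-1.52, adjusted p = 0.209, exact rank test). Above 0 were NDUFA4L2 at 0.38, NDUFA7 at 0.38, NDUFB1 at 0.24 and NDUFAF2 at 0.22. Complexes II to V had 41 of 72 genes called lower in RKO. The lines differ in medium as well as in depletion across the genome, and the part of either in this difference was not tested.

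In RKO under oxaliplatin, complex I guides were less depleted than in the untreated library when scaled by median ratio. Member guides took 0.0855% of counts under the drug (95% Wilson interval 0.0845 to 0.0865%) against 0.0915% in the untreated library. The most abundant 1% of guides held 41.4% of the oxaliplatin library, and the part of this in the result was not tested. After scaling, 28 of 53 members had a median log2 fold of 1 or higher for oxaliplatin over untreated day 20, against 12.8% of all genes, and 2 lay at -1 or lower, against 7.53%. The exact rank test called 6 members higher, against 0.409% of all genes, and 0 lower, against 0.00524%. The members' median was 1.30 and that of all genes 0.06. With scaling by total counts, which moved the median of all genes to -1.22, 10 members were at 1 or higher and 13 at -1 or lower, so the direction is relative to the other guides of the screen. Other genes depleted without the drug were high in this comparison as well, which shares the untreated library with the growth comparison, so a low count there raises the value here. As a description, the 43 members at -1 or lower in untreated RKO had a median of 1.56 for oxaliplatin over untreated, with 28 (65.1%) at 1 or higher and 6 called higher. The 50 such genes of complexes II to V had a median of 1.15, with 27 (54%) at 1 or higher and 1 called. The 2204 other such genes had a median of 0.84, with 966 (43.8%) at 1 or higher and 57 called. Whether members differ from these genes was not tested.

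The 6 members called higher were FOXRED1 at 4.12, the core subunits NDUFV1 at 3.93, NDUFS8 at 3.86 and NDUFS1 at 3.59, NDUFAF6 at 2.64 and NDUFA1 at 2.40. NDUFV1 had 236, 115, 121 and 390.03 scaled counts under oxaliplatin, against 5.10, 5.10, 32.8 and 15.3 untreated. NDUFS1 had 540.5, 83.6, 27.9 and 249 under oxaliplatin, against 14.6, 4.37, 0 and 11.7 untreated. In these 2 genes all 4 guides were higher under oxaliplatin. NDUFS8 had 2593, 217, 37.1 and 225 under oxaliplatin, against 13.8, 9.47, 130.4 and 11.7 untreated, so 3 guides were higher and 1 was lower. FOXRED1 had 55.7, 199, 249 and 295 under oxaliplatin, against 149, 0, 24.0 and 3.64 untreated. Here too the guide kept in the untreated library was lower under the drug.

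NDUFAF6 had 223, 992, 377 and 357 scaled counts under oxaliplatin, against 24.8, 488, 70.7 and 16.03 untreated. NDUFA1 had 171, 111, 102 and 68.7, against 24.8, 15.3, 21.9 and 10.2 untreated, and each of its guides was higher by a similar amount. The adjusted p values were 0.0016 for FOXRED1, 0.0034 for NDUFV1, 0.000365 for NDUFS8, 0.0325 for NDUFS1, 0.0342 for NDUFAF6 and 0.0505 for NDUFA1 by the exact rank test. These calls depended on how folds were standardised. With guides grouped by the untreated count, 0 of the 6 were called and the adjusted p values ran from 0.322 for FOXRED1 to 0.895 for NDUFA1. Without standardising, all but NDUFAF6 were called. C17orf89 was called higher at 2.13 (adjusted p = 0.0255, exact rank test).

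Among members that were not called, NDUFB6, a membrane-arm subunit, had a median of 2.85 (adjusted p = 0.562, exact rank test). Its guides had 130.01, 4454, 366 and 29.7 scaled counts under oxaliplatin, against 40.8, 118, 16.03 and 12.4 untreated, and 1 guide held most of the counts. Core subunits NDUFS3 and NDUFS7 had medians of 1.78 and 1.64, and NDUFV2 of -0.20. By class, 6 of 7 core, 14 of 20 membrane-arm, 1 of 9 matrix-arm subunits and 7 of 13 assembly factors were at 1 or higher. The exception among matrix-arm subunits was NDUFA2 at 2.20, which was also the most depleted of that class without drug. The lowest members were NDUFB11 at -1.63, NDUFA4L2 at -1.22 and NDUFS4 at -0.68, and none of them was called.

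**Figure D3:**
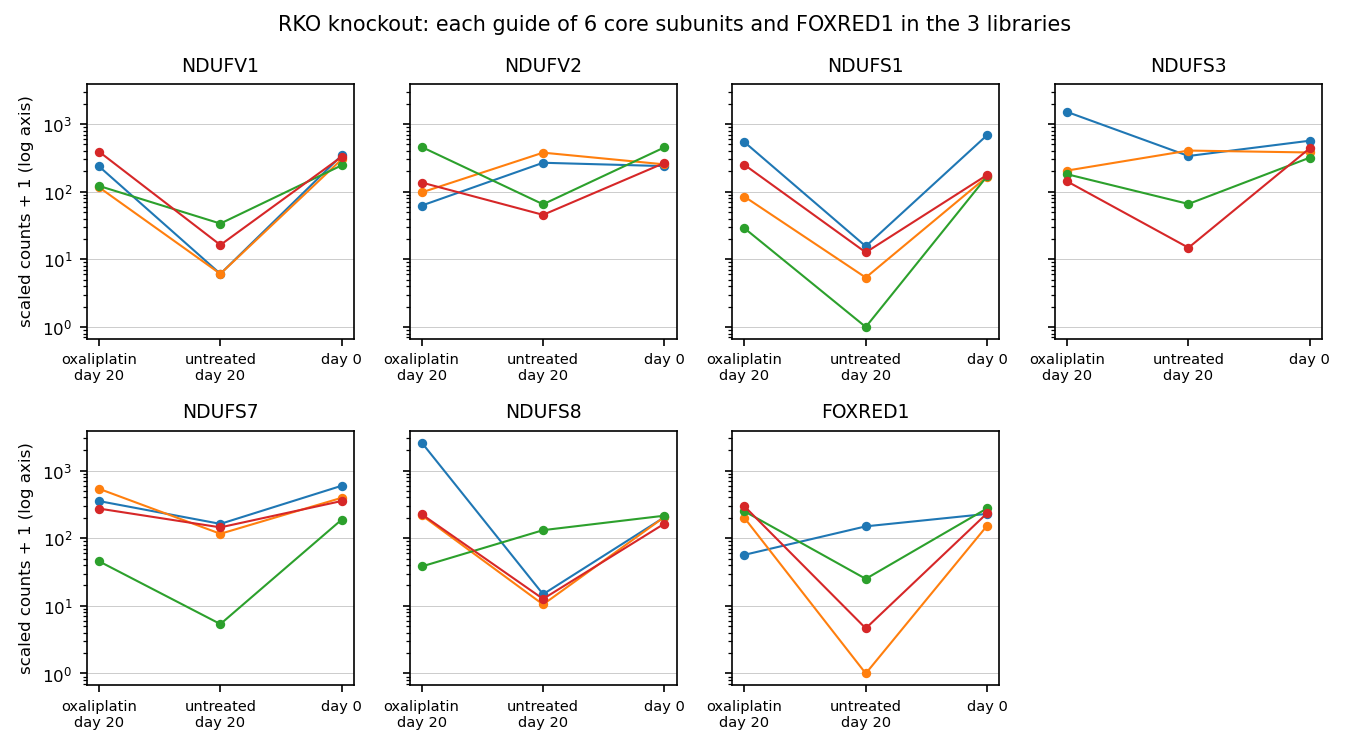
Scaled counts plus 1 (log axis) of each of 4 guides, 1 coloured line per guide, for 6 core subunits and FOXRED1 in the RKO knockout libraries from oxaliplatin day 20, untreated day 20 and day 0. The guides of NDUFV1 and NDUFS1 are lowest in the untreated library, at 0 to 32.8 scaled counts, and NDUFV2 has guides of both kinds.

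Set against day 0, which leaves the untreated day 20 library out, members under oxaliplatin had a median of -0.88, while all genes had -0.03. The untreated library's member median over the same day 0 library was -2.10. Under the drug 23 of 53 members were at -1 or lower, against 17% of all genes, and 1 was called lower, against 2.09%. The first count was 51 with scaling by total counts and 40 with scaling by non-targeting guides, which moved the median of all genes to -1.37 and -0.76. That call was NDUFB7, a membrane-arm subunit of the intermembrane space side, with 163, 154, 35.3 and 79.9 scaled counts under oxaliplatin, against 559, 618, 213 and 293 on day 0 (median -1.89, adjusted p = 0.0425, exact rank test). All 4 guides were below their day 0 level. None was called higher (0.0314% of all genes). In 42 of 53 members the gene value over day 0 was higher under oxaliplatin than untreated by median-ratio scaling, both sharing the day 0 library. The share of all genes is not given for this count. For oxaliplatin over untreated, 40 of the 43 members at -1 or lower in untreated RKO (93%) and 5 of the other 10 were above 0. So were 1758 of the 2204 other genes at -1 or lower there (79.8%), and the difference was not tested.

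By median-ratio scaling, class medians over day 0 under the drug differed, and the difference between classes was not tested. Medians were -0.16 for assembly factors, -0.76 for core subunits and -1.46 for membrane-arm subunits, set beside -1.95, -2.81 and -2.82 in the untreated library. Matrix-arm subunits had the opposite order, with a median of -0.82 under the drug and -0.29 untreated. The 10 members above -1 in untreated RKO had a median of -0.36 under the drug and 0.04 untreated. Complexes II to V had a median of -1.70 under the drug and -2.31 untreated, with 48 and 50 of 72 genes at -1 or lower. The 9 members at or above 0 over day 0 under oxaliplatin included FOXRED1, ECSIT and NDUFAF3, at 0.10, 0.09 and 0.44, and NDUFS8 at 0.27. They also included NDUFA12, NDUFAF2 and NDUFA7, which were above 0 in the untreated library too. Signs over day 0 under the drug depend on the scaling: 9 members changed sign with total-count scaling and 9 with scaling by non-targeting guides.

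NDUFB11, an X-linked membrane-arm subunit, had lower values under the drug. Its guides had 22.3, 24.1, 3.71 and 33.4 scaled counts under oxaliplatin, 95.5, 83.8, 22.6 and 1.46 in the untreated library, and 264, 170, 86.1 and 99.9 on day 0. It was the lowest member over day 0 under the drug at -2.94, against -1.57 untreated, with 3 of 4 guides lower under the drug than without it. Neither the value over day 0 under the drug nor that over untreated was called (adjusted p = 0.519 and 0.922, exact rank test). NDUFA9 followed at -2.37 under the drug, close to its untreated value of -2.29.

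**Figure D4:**
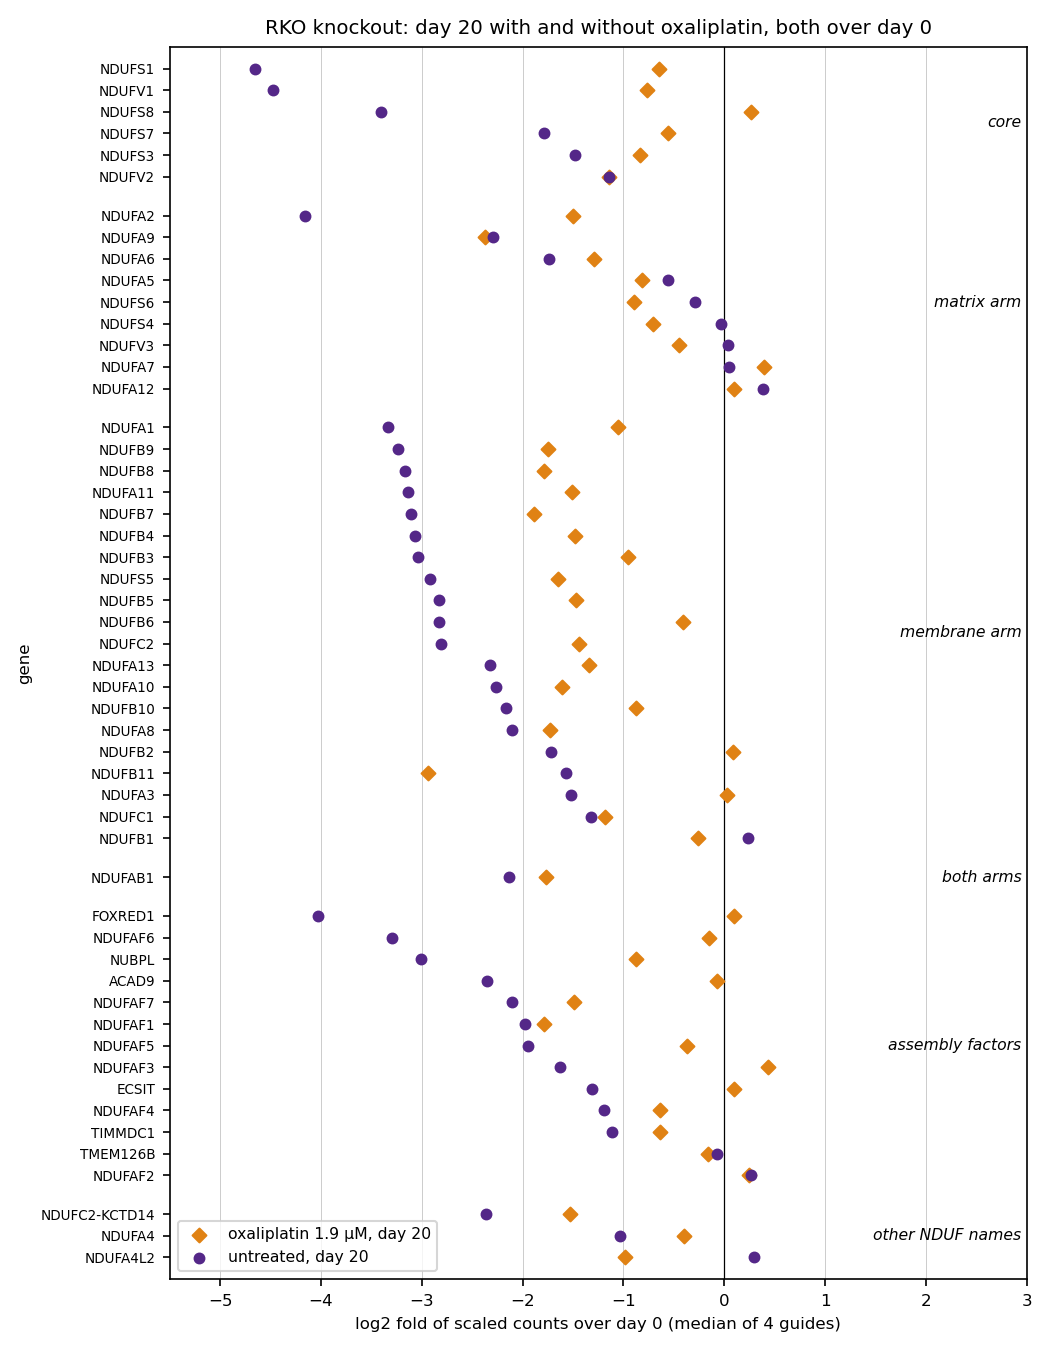
Median log2 fold over day 0 of 4 knockout guides for each of 52 genes (rows, by class) in RKO, under oxaliplatin at 1.9 µM (diamonds) and untreated (circles), both at day 20. The diamond lies to the right of the circle for 41 of these genes, and NDUFB11 is far to the left of its circle, at -2.94 against -1.57.

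In SW620 under oxaliplatin no member was called at either dose. The member share of counts was 0.283% untreated, 0.239% at 0.38 µM (95% Wilson interval 0.238 to 0.24%) and 0.181% at 0.5 µM (0.18 to 0.182%). At 0.38 µM over untreated the median was -0.08, with 4 members at -1 or lower (8.68% of all genes) and 0 at 1 or higher (4.96% of all genes). The exact rank test called 0 members, against 0.0105% of all genes lower and 0.0367% higher, and at an unadjusted p under 0.05 it gave 5 lower and 0 higher. The lowest were NDUFB6 at -2.28, NDUFB2 at -2.12 and NDUFS5 at -1.28, in the membrane arm, and NDUFA9 at -1.03, in the matrix arm. NDUFB6 had 812, 591, 328 and 211 scaled counts untreated, 128, 150, 495 and 5.07 at 0.38 µM, and 4749, 164, 49.4 and 52.0 at 0.5 µM. Guide 3 was highest at the lower dose and guide 1 at the higher, so its guides did not move together. NDUFB2 had 593, 651, 89.7 and 321 untreated, 342, 231, 5.07 and 43.1 at 0.38 µM, and 98.8, 798, 0 and 36.4 at 0.5 µM. The highest at 0.38 µM were NDUFA10 at 0.81, NDUFA7 at 0.77 and NDUFC2-KCTD14 at 0.73.

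At 0.5 µM member values lay on both sides of 0. Of 53, 17 were at -1 or lower, against 30.4% of all genes, and 7 at 1 or higher, against 25%. The exact rank test called 0 lower (0% of all genes) and 0 higher (0.00524%), with 5 lower and 4 higher at an unadjusted p under 0.05. The median was -0.57, while that of all genes was -0.10, and non-targeting guides ran from -2.68 to 3.63 between their 5th and 95th percentiles. Values ran from NDUFA9 at -2.94, NDUFB2 at -2.75 and NDUFB1 at -2.57 up to FOXRED1 at 1.71, NDUFA3 at 2.00 and NDUFB9 at 2.53. The guides of NDUFB9 alone ranged from -3.21 to 4.31. Over day 0, too, no member was called at 0.38 µM (0.367% of all genes lower, 0.00524% higher) or at 0.5 µM (0.0105% lower, 0.0157% higher) by the exact rank test, and the unadjusted p was under 0.05 for 1 lower and 1 higher, and for 3 lower and 4 higher.

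The RKO response at 1.9 µM was compared with the SW620 response at 0.38 µM guide by guide; the doses differ. Of 53 members, 30 had a difference of 1 or higher, against 20.9% of all genes, and 3 of -1 or lower, against 12.7%. The exact rank test called 0 higher (0.0524% of all genes) and 0 lower (0%), and it called 1 to 3 members under 6 of the 7 alternative settings. At an unadjusted p under 0.05, 16 were higher and 0 lower. The share of all genes is given neither at that cut nor for the alternative settings, so these counts are a description. The median was 1.54 against 0.11 for all genes. The highest were NDUFB6 at 4.80, NDUFS1 at 4.33 and NDUFS8 at 4.31, with adjusted p of 0.107, 0.38 and 0.377 by the exact rank test. The lowest were NDUFA4L2 at -1.47, NDUFS6 at -1.14 and NDUFS4 at -1.04.

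Activation of complex I genes moved no member past the threshold in any of 5 comparisons. In untreated RKO the members' median log2 fold over day 0 was 0.03 and that of all genes 0.02. No member lay at -1 or lower (0.74% of all genes), none was called lower or higher (0.101% and 0% of all genes), and the unadjusted exact rank-test p was under 0.05 for 0 lower and 4 higher. The highest were NDUFA7 at 0.67 and NDUFB6 at 0.57, and the lowest NDUFV3 at -0.40 and NDUFV1 at -0.31. In untreated SW620 the median was 0.09 and that of all genes 0.01, with 0 members at -1 or lower (0.399% of all genes), none called (0.192% of all genes lower, 0% higher) and 3 lower and 5 higher at an unadjusted p under 0.05. NDUFV1 was lowest in SW620 at -0.87, with NDUFS7 next at -0.42, and the highest were NDUFV2 at 0.49 and NDUFA11 at 0.47. The NDUFV1 guides had 137, 142 and 93.0 scaled counts untreated, against 254, 128 and 204 on day 0 (adjusted p = 0.353, exact rank test), so 2 of 3 guides were lower. The untreated SW620 activation library held 3647823 counts, a median of 62 per guide.

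Under oxaliplatin the activation libraries were noisy, most of all in RKO, where the median guide had 21 counts and 14.3% of guides were at 0. There 25 members were at -1 or lower and 15 at 1 or higher, against 47.4% and 25.8% of all genes, and the median was -0.53 against -0.82 for all genes. None was called lower (0.00533% of all genes) or higher (0%), with 1 in each direction at an unadjusted exact rank-test p under 0.05. The lower one was NDUFA7, whose median log2 fold was 3.42, and the higher one NDUFA5, at -4.22. These directions are relative to guides of similar mean count and oppose the folds. The extremes were NDUFA6 at -5.22, NDUFB1 at -4.92, NDUFB4 at 3.51 and NDUFAF7 at 4.46. In SW620 at 0.38 µM, 5 members were at -1 or lower and 3 at 1 or higher, against 10.9% and 8.73% of all genes, with 0 called (0% lower, 0.0426% higher) and unadjusted p under 0.05 for 3 lower and 1 higher by the exact rank test. The extremes there were NDUFS4 at -1.32, NDUFV2 at -1.25, NDUFB6 at 1.34 and NDUFS3 at 1.80. At 0.5 µM, 8 members were at -1 or lower and 5 at 1 or higher, against 15.2% and 12.3%, with 0 called (0.0107% lower, 0.0373% higher) and unadjusted p under 0.05 for 2 lower and 1 higher by the exact rank test. Values near the ends there were NDUFC2-KCTD14 at -2.48, NDUFA1 at -1.94 and NDUFA5 at 2.47. Whether any guide raised the expression of its target was not measured.

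**Figure D5:**
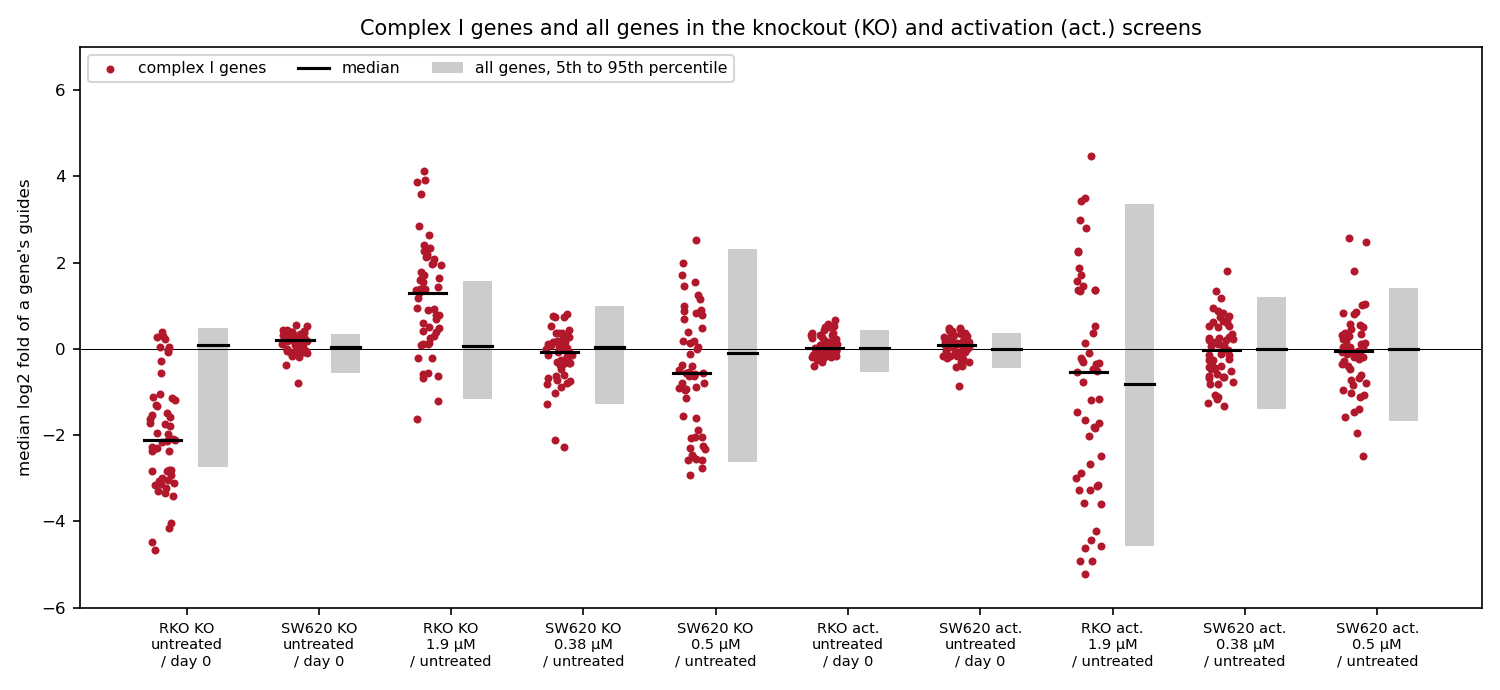
Median log2 fold of each complex I gene (points, with their median as a black bar) beside the 5th to 95th percentile of all genes (grey bar, with their median), in 10 comparisons of the knockout (KO) and activation (act.) screens. Complex I genes stand below the centre of all genes in untreated RKO knockout (median -2.10) and above it in RKO knockout under oxaliplatin (median 1.30).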

How the data were processed

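The authors deposited, for each of the 4 screens, a table of raw counts per guide, in whole numbers, and a normalized table that was not used here. The tools named per the submitters' processing notes are MAGeCK 0.5.7 and cutadapt 4.0, whose settings are not given in the sources used here. Coordinates are left out because no build is stated. Of 54 member symbols, 52 are current in RefSeq GRCh38.p14. Every count column was matched to its sample by name.

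Within a screen, libraries were brought to one scale by median ratio, and log2 folds were taken with a pseudocount of 5. Guides under 20 scaled counts on day 0 were left out, and genes needed 3 guides (knockout) or 2 (activation). In 50 bins of the mean count, folds had their centre removed, were divided by the bin's spread and were then ranked. Genes were scored by robust rank aggregation (rank shares up to 0.25) with exact probabilities. Python 3.11.15 was used with numpy 2.4.6, pandas 2.3.3 and scipy 1.17.1. The code was tested on counts simulated from the reference libraries with a fixed spread. That setting does not hold the skew of the oxaliplatin libraries. Wilson intervals and the 3-count limit of a guide at 0 hold counting error alone, because PCR copies lacking molecular identifiers are not separate molecules.

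The members and lists were chosen with earlier results of these data known. Named by rule were the core subunits, the called members with the smallest p, the 3 highest and 3 lowest medians of each knockout comparison and the 2 highest and 2 lowest of each activation comparison; other members were named after their values were seen. Results of 1 member are not reported here. The 7 alternatives changed the scaling, filter, pseudocount or standardising. Guides of the lines' activation tables are numbered differently, so the lines were compared for knockout only. Guide sequences were not used here.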

Additional observations from a re-analysis of the deposited data

Results flagged for a closer look

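The untreated growth values of 34 members differed between RKO and SW620 by the exact rank test on guide-by-guide differences; 33 of the values are given, each being the median RKO minus SW620 log2 fold, and all are lower in RKO. Core subunits were NDUFV1 at -4.74, NDUFS1 at -4.51, NDUFS8 at -3.73, NDUFS7 at -1.96 and NDUFS3 at -1.69. Matrix-arm subunits were NDUFA2 at -4.28, NDUFA9 at -2.29, NDUFA6 at -2.24 and NDUFA5 at -0.87. Membrane-arm subunits from NDUFB4 to NDUFC2 were NDUFB4 at -3.88, NDUFA11 at -3.67, NDUFB9 at -3.55, NDUFB3 at -3.45, NDUFA1 at -3.39, NDUFB7 at -3.24 and NDUFC2 at -3.10. The others of that arm were NDUFB5 at -3.07, NDUFS5 at -3.06, NDUFB6 at -3.01, NDUFB8 at -2.73, NDUFA8 at -2.49, NDUFA13 at -2.45, NDUFB10 at -2.28 and NDUFC1 at -1.90. Assembly factors were FOXRED1 at -4.38, NDUFAF6 at -3.82, NUBPL at -3.41, ACAD9 at -2.57, NDUFAF5 at -2.34, NDUFAF7 at -2.24, ECSIT at -1.60 and NDUFAF4 at -1.52. The readthrough gene NDUFC2-KCTD14 was at -2.67. Medium differs with line, and each line has 1 library per condition.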

How the results depend on the processing

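Over 7 alternatives, 314 of 343 recomputed counts stayed within 1.5 times their value and 29 moved. Of 5561 recomputed gene values, 281 without a call changed sign, 49 gained a call, 27 lost one and none of the called ones changed direction. Calls lost were 12 without standardising, 9 with control-count groups, 2 with each other scaling, and 1 each with no filter and a pseudocount of 1. No paired analysis was possible because the labels give 1 library per condition and no replicate numbers. The number of members called lower in RKO than in SW620 was 33 to 36; of the 34, 29 were also called without standardising and 33 with control-count groups. With guides grouped by the control count, 0 members were called higher in RKO under oxaliplatin in place of 6. Without standardising, 1 member was called lower in untreated SW620 in place of 0, 2 in RKO under oxaliplatin over day 0 in place of 1, and 3 in the RKO minus SW620 response in place of 0; that response gave 1 with no filter, with the mean filter, with both other scalings and with control-count groups.

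Scaling by total counts moved the all-gene median of oxaliplatin over untreated to -1.22 (RKO knockout), -0.39 and -2.12 (SW620 knockout at 0.38 and 0.5 µM), -4.14 (RKO activation), -0.34 and -0.52 (SW620 activation). Member counts at -1 or lower were then 13, 12, 46, 48, 9 and 14 in that order, and those at 1 or higher were 10 in RKO knockout, 0 in SW620 knockout at 0.5 µM, 0 in RKO activation, and 1 and 3 in SW620 activation. RKO oxaliplatin over day 0 had 51 at -1 or lower (all genes at -1.37). Scaling by non-targeting guides gave 1 at -1 or lower in untreated SW620, 7 at 0.38 µM, 33 at 0.5 µM with 2 at 1 or higher, 38 in RKO activation under oxaliplatin with 3 at 1 or higher, and 40 in RKO oxaliplatin over day 0. The mean filter gave 1 at -1 or lower in RKO knockout under oxaliplatin, in place of 2. The single library per condition and the counts held by few guides under oxaliplatin limit what these folds can show.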
